A study of Mus musculus with 16 samples.

Results

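The genes described here are 9 host genes of small nucleolar RNAs (snoRNAs), *Snhg1*, *Snhg6*, *Snhg8*, *Snhg11*, *Snhg12*, *Snhg15*, *Snhg17*, *Snhg20* and *Gas5*, out of 32285 genes counted in single nuclei of the mouse dentate gyrus (DG). They were chosen by symbol, with the difference between the genotypes in these libraries already known. For that difference their values are therefore a description without a test of their own.

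A snoRNA host gene is transcribed as a long precursor. The introns of the precursor release snoRNAs that guide the methylation and pseudouridylation of ribosomal RNA, and the exons are spliced into a noncoding RNA. Several of these spliced RNAs begin with a run of pyrimidines, as the mRNAs of ribosomal proteins and translation factors do, and are degraded in the cytoplasm by nonsense-mediated decay while ribosomes are translating.

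The nuclei came from 4 WT mice, labelled VV, and 4 V321L mice, labelled LL, which carry a valine-to-leucine change in the transmembrane domain of the neuregulin *Nrg1* in place of the WT allele. Each genotype had 2 females and 2 males, written F1, F2, M1 and M2 below. No mouse is labelled with any other allele or agent, and their ages are not given in the labels. Nuclei were isolated from frozen microdissections of the DG, and polyA RNA and accessible chromatin were sequenced from the same nuclei, with 1 library of each kind per mouse.

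RefSeq (GRCm38.p6, the assembly also called mm10 in the labels) places *Gas5* at chr1:161034601-161038539 with 8 snoRNA genes inside it, *Snhg1* at chr19:8723487-8726326 with 8, and *Snhg12* at chr4:132308678-132311024 with 4. *Snhg11*, at chr2:158375713-158386474, and *Snhg17*, at chr2:158353700-158361522, hold 2 each. *Snhg6* (chr1:9942025-9944118), *Snhg8* (chr3:123507552-123508336) and *Snhg15* (chr11:6525591-6528760) hold 1 each. *Snhg20* (chr11:117076783-117078955) holds 0 annotated snoRNA genes in spite of its name. All 9 are annotated as long noncoding RNAs.

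RefSeq start windows of 30 bases, 20 before the start site and 10 from it on, were on hand for 8 of the 9 genes and are shown for the 4 genes whose levels differed most between the genotypes and for *Snhg11*, which differed least, since the pyrimidine run at the start is the feature they may share with ribosomal protein mRNAs. The windows are chr3:123508327-123508356 on the minus strand for *Snhg8*, and on the plus strand chr4:132308658-132308687 for *Snhg12*, chr1:161035146-161035175 for the second start of *Gas5*, chr11:117076763-117076792 for *Snhg20* and chr2:158375693-158375722 for *Snhg11*. Capitals mark a C followed by at least 4 C or T, beginning within 5 bases of the start site. Only the strand of the gene was searched.
Snhg8: tgcgcgcaccgttcagaagtCTCTTTggct
Snhg12: gtgcaggccgttctcagtCCTTTCTCgctt
Gas5: gactcagccgccatctcagCCTTTCggagc
Snhg20: taaatcttcagttccggccggaagtgcatt
Snhg11: agtcccgcactgcggcactcactcacgcac
Such a run was found in 3 of 10 windows of these genes (*Snhg17* and *Gas5* each have a pair of annotated starts), in 42.3% of 78 windows of ribosomal protein genes, and in 18.3% of 32851 windows of all genes. *Snhg20* and *Snhg11* had no run in these windows. The window of the first *Gas5* start, chr1:161034581-161034610 on the plus strand, is not shown and had no run either. The same holds for the windows of *Snhg1*, *Snhg15* and *Snhg17*. Since the windows shown were chosen by the genotype difference, no link between the run and that difference is read from them.

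The libraries held 4326426 to 14624265 RNA unique molecular identifiers (UMIs) in WT and 15505354 to 23582057 in V321L mice, and 1760 to 3615 and 1472 to 1979 nuclei passed the filters. Classes of nuclei were selected on the UMIs of marker genes, none of which is a host gene. This gave 1345 to 2533 granule cells (GCs) per WT mouse and 850 to 1226 per V321L mouse, with *Prox1*, a transcription factor of GCs, at 253 to 286 and at 217 to 241 CPM. Of the 9 GC markers of the gate, 3 were higher in all V321L mice, 4 lower and 2 overlapped, with *C1ql2* at 13.6 to 42.5 CPM in WT and 311 to 334 CPM in V321L mice and *Glis3* at 993 to 1246 and 423 to 585 CPM. The median GC held 1119 to 1991 UMIs in WT and 3227 to 4661 in V321L mice. Genes of ribosomal proteins took 0.0503% to 0.124% of GC UMIs in WT and 0.890% to 1.92% in V321L mice, and mitochondrially encoded genes took 0.184% to 0.279% and 0.423% to 1.18%. The UMIs per library, the number and depth of GCs, and the ribosomal protein and mitochondrial shares all separated the genotypes, as most GC markers did. The numbers of nuclei that passed the filters overlapped. The part of these measures in the differences below was not tested. Any pair of libraries shared 1 to 13 cell barcodes. Levels are given as CPM (counts-per-million), the UMIs of a gene scaled to the total UMIs of that class in that mouse. The UMIs are not divided by gene length, so levels are compared between mice and classes and not between genes.

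In GCs, the 9 host genes together took 0.0301% to 0.0400% of all UMIs in WT mice and 0.0612% to 0.0841% in V321L mice. Levels of 8 of the 9 were higher in all V321L mice than in any WT mouse, and *Snhg11* was the exception. Among all 12554 genes tested in GCs, 48.1% showed the same separation.

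The hosts of many snoRNAs differed in size of response. *Gas5*, which accumulates in growth-arrested cells, was at 15.8, 13.4, 21.8 and 19.3 CPM in WT F1, F2, M1 and M2 and at 135, 103, 97.4 and 152 CPM in the V321L mice in the same order. *Snhg12*, whose introns hold H/ACA snoRNAs, was at 2.64, 2.73, 3.35 and 3.05 CPM in WT and at 33.0, 26.4, 20.5 and 34.4 CPM in V321L mice. *Snhg1*, the host of *Snord22*, was at 7.04, 3.70, 9.50 and 3.31 CPM in WT and at 18.6, 12.9, 14.6 and 14.02 CPM in V321L mice. The lowest V321L mouse exceeded the highest WT mouse for all of these, by a narrow margin for *Snhg1* and a wide margin for *Gas5* and *Snhg12*. On the log2 scale of the edgeR fit, *Snhg12* was 2.83 higher in V321L mice (SE 0.23), *Gas5* 2.38 (SE 0.17) and *Snhg1* 1.04 (SE 0.27).

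The hosts of 1 or 2 snoRNAs held both the largest and the smallest differences. *Snhg8*, the host of *Snora24*, was at 0.586, 1.17, 2.795 and 2.29 CPM in WT and at 33.0, 27.1, 38.6 and 36.9 CPM in V321L mice, from 22 UMIs in all WT GCs and 566 in all V321L GCs. *Snhg6*, the host of *Snord87*, was at 8.79, 8.56, 6.71 and 5.09 CPM in WT and at 18.3, 15.7, 13.0 and 18.6 CPM in V321L mice. The groups lay far apart for *Snhg8* and close together for *Snhg6*, with log2 fold changes of 3.96 (SE 0.28) and 0.69 (SE 0.22). *Snhg15* rested on 7 UMIs in WT and 56 in V321L mice, with means of 0.435 ± 0.327 and 3.37 ± 0.660 CPM (SD, n = 4 each), and WT M1 had none. *Snhg17* was at 1.96 ± 2.05 CPM in WT and 6.22 ± 0.597 CPM in V321L mice (mean ± SD, n = 4 each). WT M1 stood at 5.03 CPM of *Snhg17*, just under the lowest V321L mouse at 5.63. The log2 fold changes were 2.24 (SE 0.46) for *Snhg15* and 1.56 (SE 0.42) for *Snhg17*, and the latter was 2.13 without WT M1.

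*Snhg11*, a long noncoding RNA enriched in neurons, did not separate the genotypes. It was at 293, 267, 343 and 322 CPM in WT and at 511, 504, 344 and 343 CPM in V321L mice. The V321L females were above all other mice and the V321L males were level with the highest WT mouse, so the groups overlapped at 343 CPM. The log2 fold change was 0.05 (SE 0.14), and it ranged from -0.13 with doublets kept to 0.51 with library sizes that leave out ribosomal protein and mitochondrial genes.

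*Snhg20*, with no annotated snoRNA inside, was at 5.86, 2.53, 7.27 and 6.11 CPM in WT and at 82.9, 93.6, 74.2 and 90.8 CPM in V321L mice, a log2 fold change of 3.63 (SE 0.20). The gap between the groups was many times the spread within either.

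**Figure D1:**
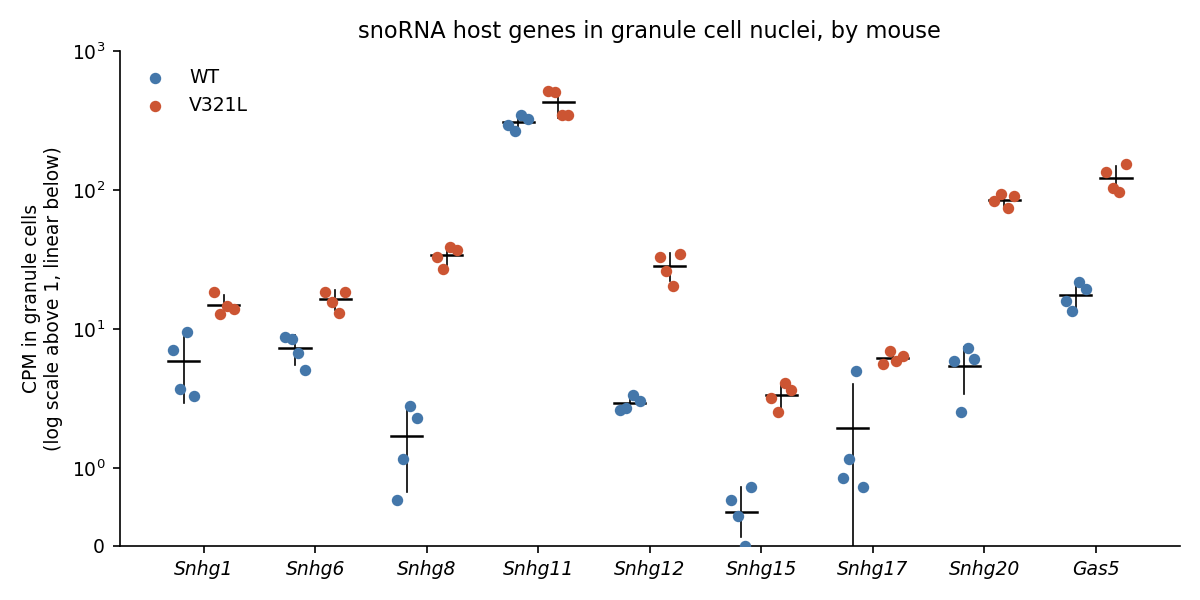
Levels of the 9 host genes in GC nuclei in CPM (vertical axis, logarithmic above 1 and linear below), with a point per mouse, WT in blue and V321L in red. Horizontal lines are means and vertical lines SD over 4 mice, with the lower end held at 0. The groups are separate for 8 genes and overlap for *Snhg11*.

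By edgeR's quasi-likelihood test over all genes (Benjamini-Hochberg adjusted p under 0.05), 8 of the 9 host genes were called higher in V321L GCs, and 0 lower, where 38.5% of all tested genes were called higher. Since the genes were selected with this contrast known, nothing is read from that count. The class gate was revised after marker levels had been seen, and with the gate as first written 7 host genes passed the filter on low counts and 6 of them were called, against 34.0% of all genes called higher. Of all genes, 4839 were called higher and 3976 lower with the edgeR scaling factors (TMM), against 6733 and 2241 with plain library sizes. The median over all genes lay at 0.11 and 0.55 on the log2 scale, respectively. With library sizes all 9 host genes were called, *Snhg11* among them at 0.48, against 53.6% of all genes. When nuclei were thinned to 1000 UMIs, 7 host genes were tested and 4 called, namely *Snhg8*, *Snhg12*, *Snhg20* and *Gas5*, against 34.5% of all genes.

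Genes of ribosomal proteins stood next to the host genes. All 83 that were tested were called higher in V321L GCs, with a median log2 fold change of 3.95 and a range of 1.49 to 5.34, and the lowest values belonged to the related genes *Rps27l* and *Rpl7l1*. *Rplp1* was at 12.6 ± 8.54 CPM in WT and 468 ± 183 CPM in V321L mice (mean ± SD, n = 4 each). *Snhg8*, at 3.96, lay at the median of these genes, whereas *Snhg1*, *Snhg6* and *Snhg11* lay below their whole range. At the rate of free RNA estimated below, free RNA would account for 80.2% of the ribosomal protein UMIs in V321L GCs and for 114% of those in WT GCs, more than were found. With that amount subtracted 54 of these genes were tested and 47 called higher, with log2 fold changes of -0.59 to 11.98. Many ribosomal protein genes have processed pseudogenes, so their counts are uncertain where reads could match both.

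**Figure D2:**
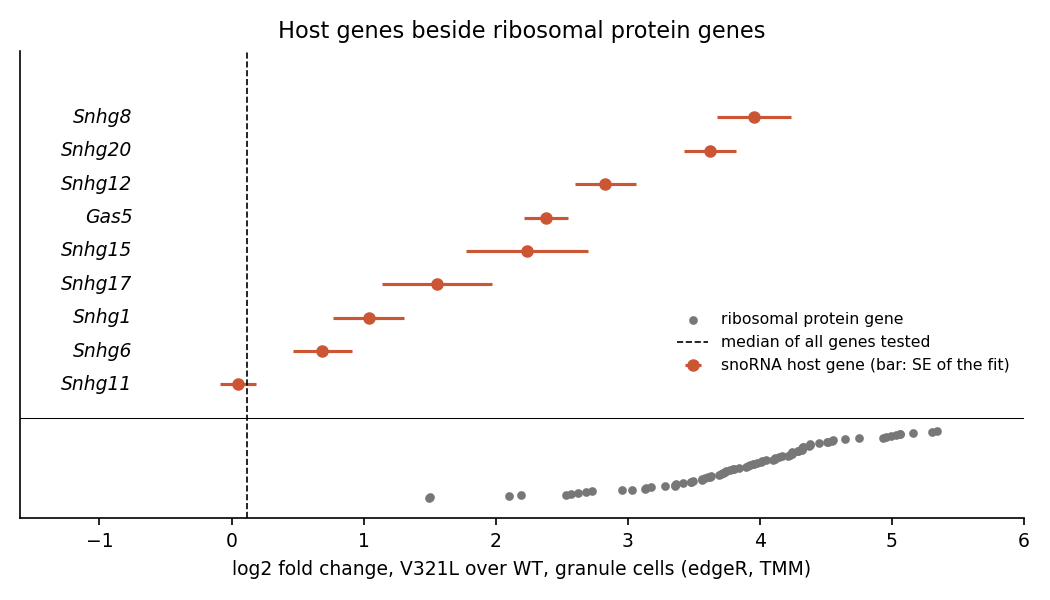
Log2 fold change of V321L over WT in GCs (horizontal axis, edgeR with TMM). Red points are the 9 host genes with the SE of the fit, grey points the 83 ribosomal protein genes in order, and the dashed line the median of all genes at 0.11. *Snhg8* is within the grey points and *Snhg11* is at the dashed line.

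Of the 8 other genes named *Snhg*, 5 were tested in GCs, 4 were called higher and 1 lower, with a median log2 fold change of 1.56. The gene called lower was *Snhg14*, a very long transcript that hosts the imprinted snoRNA clusters of the Prader-Willi region, at 1020.4 ± 102 CPM in WT and 683 ± 19.9 CPM in V321L mice (mean ± SD, n = 4 each; log2 fold change -1.02, SE 0.13). *Snhg4* rose from 7.27 ± 2.02 to 23.6 ± 1.71 CPM and *Snhg10* from 5.25 ± 2.05 to 23.0 ± 1.71 CPM (SD, n = 4 each). The noncoding snoRNA hosts with other names, *Zfas1*, *Dancr* and *Epb41l4aos*, were called higher in 3 of 3 cases, with log2 fold changes of 2.41, 3.22 and 4.00.

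Of the core proteins of snoRNA particles, 7 of 8 were called higher and 0 lower (median 1.39). *Snu13*, which binds the kink-turn of C/D snoRNAs, had a log2 fold change of 2.05 and *Nop56* of 0.80, while *Nop58*, at 45.5 ± 4.15 CPM in WT and 51.8 ± 5.58 CPM in V321L mice (mean ± SD, n = 4 each), was not called, with a log2 fold change of -0.25 that turned to 0.19 with plain library sizes. The nonsense-mediated decay factors were split, with 4 of 10 called higher and 5 lower (median -0.15). The kinase *Smg1*, at 277 ± 7.64 CPM in WT and 218 ± 16.5 CPM in V321L mice (mean ± SD, n = 4 each), was among those called lower. *Smg6* was called lower too, at -0.38 relative to the scaling factors, although its CPM were 209.8 ± 13.0 in WT and 217.6 ± 23.4 in V321L mice (mean ± SD, n = 4 each). With plain library sizes 4 of these 10 were called higher and 2 lower, with a median of 0.29. Of the other mRNAs known to start with a pyrimidine run, 10 of 11 were called higher (median 1.73), *Eef1a1* at 2.33, *Tpt1* at 3.32 and *Pabpc1* at 0.96.

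RNAs kept in the nucleus did not move together, with 3 of 6 called higher and 2 lower (median 0.17). *Malat1*, the nuclear speckle RNA, was at 9217 ± 1021 CPM in WT and 42458 ± 5515 CPM in V321L mice (mean ± SD, n = 4 each). *Meg3* had a log2 fold change of 0.98 and *Kcnq1ot1* of -0.55, although the CPM of the latter overlapped, at 392 to 543 in WT and 411 to 492 in V321L mice. With plain library sizes 3 of the 6 were called higher and 1 lower (median 0.61). Of the 13 mitochondrially encoded genes, 8 were called higher and 4 lower (median 0.65), with *mt-Co3* at 2.85, *mt-Co2* at 2.00 and *mt-Atp6* at 1.65. With free RNA subtracted, 0 of the 13 were left to test.

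Free RNA, read from barcodes with at most 100 UMIs, held more of most host genes in V321L libraries. *Gas5* was at 48.4 to 84.9 CPM of free RNA in WT and at 649 to 780.3 CPM in V321L libraries, above its level in GCs in all 8 mice. *Snhg6* was at 5.93 to 8.08 and 98.9 to 134 CPM, *Snhg8* at 2.69 to 11.9 and 124 to 190.03 CPM, and *Snhg12* at 5.18 to 10.8 and 71.2 to 80.5 CPM. *Snhg20*, at 1.35 to 6.91 and 32.3 to 63.5 CPM, was below its GC level in every V321L mouse. *Snhg11* went the other way, with 257 to 480.04 CPM in the free RNA of WT and 132 to 240.2 CPM in that of V321L libraries. Ribosomal protein genes took 0.819% to 1.48% of free RNA in WT and 10.1% to 11.6% in V321L libraries.

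From 6 marker genes of other cells that no gate used, free RNA was estimated at 5.86% to 11.2% of GC UMIs in WT and 5.60% to 14.2% in V321L mice. Of the 6, *Slc1a2* had the highest mean in GCs, at 200 to 246 CPM in WT and 119 to 201 CPM in V321L mice. It was at 345 to 452 and 166 to 307 CPM in other excitatory neurons. Whether GCs make some of it, which would put this rate too high, was not tested. For ribosomal protein genes this rate gave 11118 UMIs in WT GCs, where 9732 were found, so it is too high there. The shares and subtracted values below may thus be affected. At that rate free RNA would account for 66.6% of the *Snhg6* UMIs in V321L GCs and 7.27% in WT GCs, and for 56.0% and 28.4% of the *Gas5* UMIs. For *Snhg8* the shares were 41.6% in V321L and 32.5% in WT, and for *Snhg12* 25.6% and 22.2%. They were 5.22% and 5.77% for *Snhg20*, 10.8% and 11.4% for *Snhg1* and 3.72% and 9.06% for *Snhg11*. After this amount was subtracted, 6 of 8 tested host genes were called higher in V321L GCs, where 39.0% of all genes were. *Snhg6* then turned to a log2 fold change of -0.90 (SE 0.41) and was not called, *Gas5* went from 2.38 to 1.65 (SE 0.19), and *Snhg20* stayed at 3.63 (SE 0.19).

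**Figure D3:**
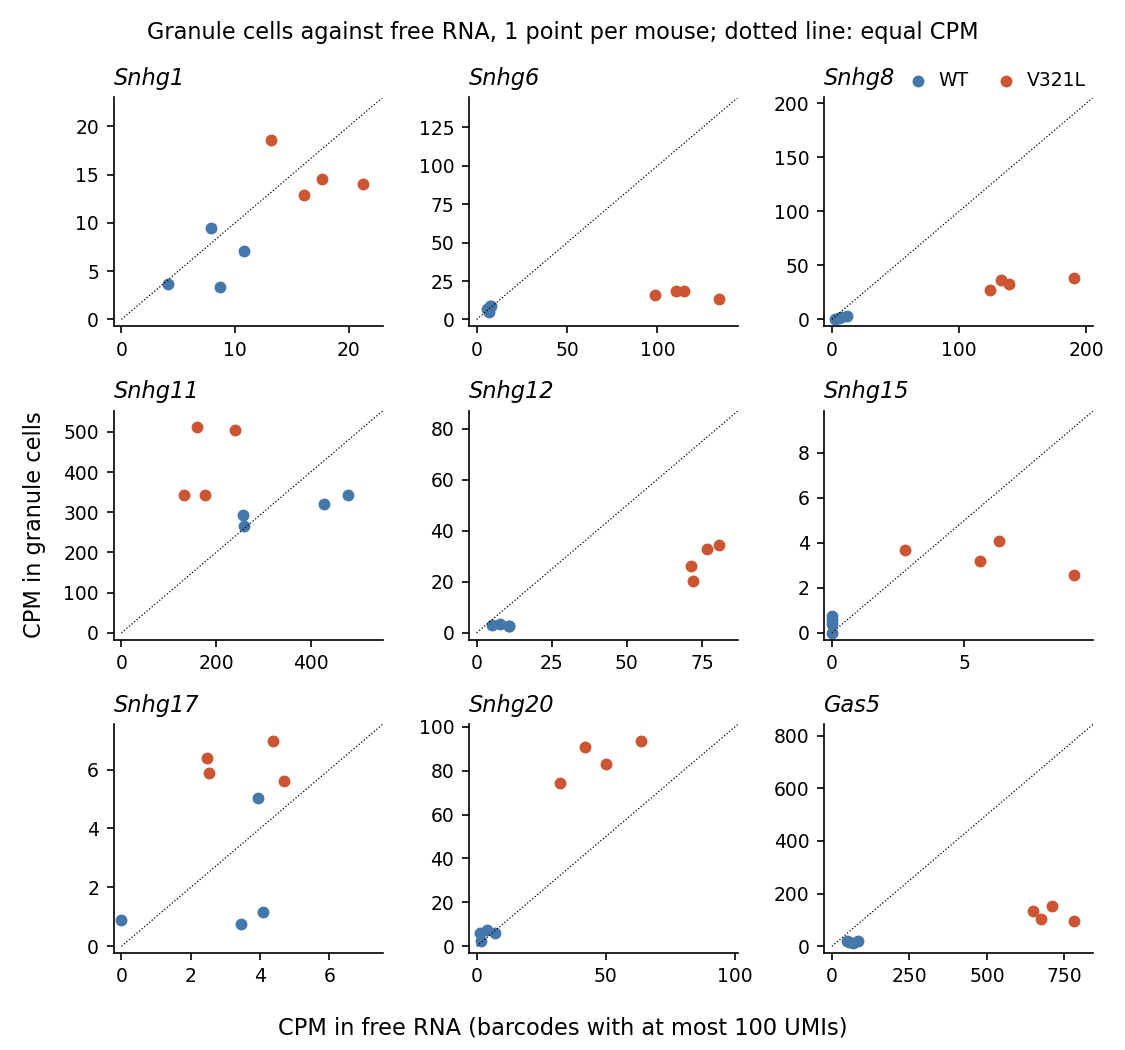
CPM of each host gene in GC nuclei (vertical axis) against its CPM in free RNA (horizontal axis, barcodes with at most 100 UMIs), a point per mouse, WT in blue and V321L in red, with a dotted line at equal CPM. Points of *Gas5* and *Snhg6* in V321L mice lie far right of the line, with *Gas5* at 649 to 780.3 CPM of free RNA, and those of *Snhg20* lie above it.

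The share of GCs with at least 1 *Snhg11* UMI was 32.1% ± 5.77 in WT and 60.0% ± 8.87 in V321L mice (mean ± SD, n = 4 each), and at 1000 UMIs per nucleus it was 21.5% ± 2.34 and 29.5% ± 5.86. The share with *Gas5* was 3.45% ± 0.897 in WT and 36.7% ± 1.83 in V321L mice, and at 1000 UMIs 1.54% ± 0.368 and 11.7% ± 2.81. That with *Snhg20* was 1.07% ± 0.448 and 29.0% ± 5.20, and at 1000 UMIs 0.729% ± 0.371 and 8.995% ± 0.801. The thinned values used 5136 of 6849 WT and 4170 of 4245 V321L GCs. In oligodendrocytes, with median depths of 673 to 923.5 UMIs in WT and 925 to 1301 in V321L mice, 12.3% ± 5.97 of WT and 3.23% ± 2.24 of V321L nuclei held *Snhg11* (mean and SD over 4 mice each). *Gas5* was found in 1.29% ± 1.65 and 16.5% ± 5.22, and *Snhg20* in 13.99% ± 5.35 of V321L nuclei. *Snhg20* was found in 0 of 162 WT nuclei, which allows a share with a UMI of up to 1.85% at this depth. The free RNA estimated per GC would give 155 *Gas5* UMIs in the oligodendrocytes of V321L mice, where 111 were found. It would also give 24430 ribosomal protein UMIs there, where 10540 were found. This amount is thus too high for the class, and no share of *Gas5* is read from it. For *Snhg20* it would give 10.5 of 85 UMIs. At 1000 UMIs, 14.5% ± 5.83 of V321L oligodendrocytes held *Gas5* and 10.9% ± 5.55 held *Snhg20*, near the shares of V321L GCs at that depth, so these shares are not read as particular to GCs. At 500 UMIs the *Snhg11* share was 12.2% in WT and 17.0% in V321L GCs and 7.18% ± 4.35 and 2.19% ± 1.63 in oligodendrocytes. The limit covers counting error only.

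Across classes, the mean level of *Snhg11* was highest in GABAergic neurons. These nuclei, 32 to 76 per WT mouse and 29 to 39 per V321L mouse, held *Erbb4* at 10718 to 14717 CPM in WT, a gene kept out of the gate. Genes kept out were also looked at when the gate was revised. *Erbb4* was at 3646 to 6821 CPM in WT OPCs and at 746 to 4005 CPM in WT oligodendrocytes, so it is not particular to GABAergic nuclei. In WT F1, F2, M1 and M2, *Snhg11* was at 3368, 2365, 3597 and 3441 CPM in GABAergic nuclei, and the lowest of these was several times the highest GC value of 343 CPM. In the 4 WT mice the log2 difference from GCs was 3.13 (SE 0.13, edgeR with mouse as a block, adjusted p = 8.59e-121, higher in 4 of 4 mice), and *Snhg11* was the only host gene of 4 tested that was called, where 10.4% of all genes were called higher in GABAergic nuclei. Without WT F2 its adjusted p was 5.08e-14 (edgeR), so the size of this p-value depends on the mice kept. With UMIs thinned to 1000 per nucleus, *Snhg11* was found in 93.3% ± 7.46 of WT GABAergic nuclei (SD, n = 4).

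The other host genes tested between these classes in WT mice were *Snhg6*, at 0.55 (SE 0.72, adjusted p = 0.648), *Snhg20*, at 1.26 (SE 0.74, adjusted p = 0.218) and *Gas5*, at -1.47 (SE 0.71, adjusted p = 0.118, all edgeR). Without WT M1, which held 4 of the 8 GABAergic *Snhg20* UMIs, *Snhg20* was at 0.57. The WT levels of these genes rested on 4 to 8 UMIs in all GABAergic nuclei, so a difference of this size was not detectable at this depth. In the V321L mice, where 28.9% of genes were called in either direction, all 9 were tested and 4 were called. *Snhg11* was 3.30 higher in GABAergic nuclei than in GCs on the log2 scale (SE 0.16, adjusted p = 1.17e-23) and *Snhg20* 0.85 higher (SE 0.18, adjusted p = 0.000159). *Gas5* was at -0.78 (SE 0.22, adjusted p = 0.00399) and *Snhg8* at -1.22 (SE 0.43, adjusted p = 0.0246), both lower in GABAergic nuclei. The *Snhg8* value rested on 11 UMIs in all V321L GABAergic nuclei, and those of V321L F1 held none. Free RNA at the GC rate would give 8.30 of these 11 UMIs and 39.8 of the 53 *Gas5* UMIs in these nuclei. This contrast of V321L mice was not run with free RNA subtracted. The part of free RNA in the *Gas5* and *Snhg8* differences was thus not tested, and neither is read as a difference between the cell types.

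In order of WT means, *Snhg11* was at 3193 ± 560 CPM in GABAergic neurons, 2090 ± 530.2 in other excitatory neurons, 640.4 ± 541 in oligodendrocytes, 512 ± 364 in microglia, 371 ± 204 in astrocytes, 306 ± 33.4 in GCs and 149 ± 118 in oligodendrocyte precursor cells (OPCs) (SD, n = 4 each). The 4 WT values of GABAergic and other excitatory neurons overlapped, and so did those of neighbours further down. Few nuclei stood behind some of these values, with 11 to 77 other excitatory neurons and 12 to 34 OPCs per WT mouse and with WT M1 at 15 oligodendrocytes, 14 astrocytes and 4 microglia. The highest oligodendrocyte value, 1434 CPM, came from WT M1. In V321L mice the means were 4383 ± 390.4 CPM in GABAergic and 3278 ± 465 in other excitatory neurons, 480.4 ± 287 in microglia and 426 ± 94.8 in GCs (SD, n = 4 each), and 201 to 213 CPM in the remaining classes.

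Without WT M1, 3 glial classes had at least 20 nuclei in each of the other 7 mice, a choice made after the data were seen. *Snhg11* did not pass against GCs of the 3 WT mice in astrocytes (log2 difference -0.16, SE 0.24, adjusted p = 0.621, where 47.6% of genes were called) or oligodendrocytes (0.12, SE 0.27, adjusted p = 0.770, where 39.0% were). In microglia it was 0.78 higher (SE 0.26, adjusted p = 0.0208, where 32.5% were called), all by edgeR. The microglial call was lost with at least 3 markers per nucleus (0.50, adjusted p = 0.368), with thinning (0.35, adjusted p = 0.666) and with free RNA subtracted (0.68, adjusted p = 0.0725). Of the microglial genes kept out of the gate, *Siglech* was at 191 to 537 CPM in the microglia of these 3 WT mice, against 0.763 to 1.17 CPM in their GCs, and *C1qa* at 0 to 54.6 CPM. In V321L mice *Snhg11* was lower in oligodendrocytes than in GCs (log2 difference -1.42, SE 0.55, adjusted p = 0.0342), where 50.7% of genes were called.

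**Figure D4:**
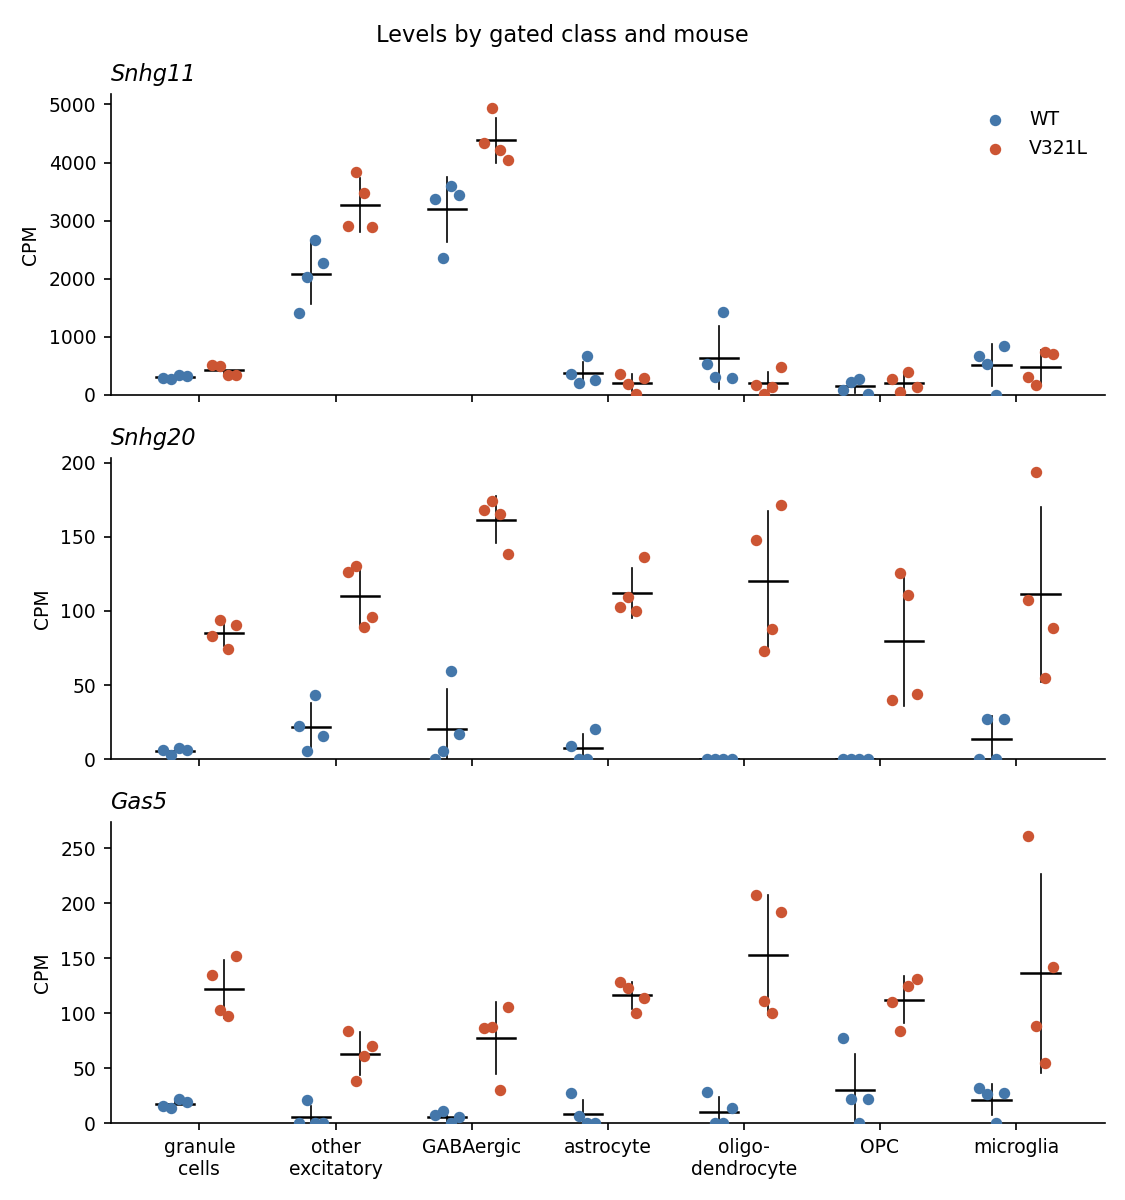
CPM of *Snhg11*, *Snhg20* and *Gas5* (vertical axes) in 7 gated classes, with a point per mouse, WT in blue and V321L in red. Horizontal lines are means and vertical lines SD over 4 mice, with the lower end held at 0. *Snhg11* is highest in GABAergic and other excitatory neurons of both genotypes, and *Snhg20* is at 0 in the oligodendrocytes and OPCs of all WT mice.

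The genotype difference was also measured in the other classes. In GABAergic nuclei *Snhg20* was at 0, 5.40, 59.2 and 16.8 CPM in WT and at 168, 174, 166 and 138 CPM in V321L mice, a log2 fold change of 3.40 (SE 0.48) that was 4.10 without WT M1. *Snhg11* was at 4330.1, 4942, 4216 and 4045 CPM in the V321L mice, all above the highest WT mouse at 3597, with a log2 fold change of 0.46 (SE 0.17). These were the only host genes that passed the filter on low counts. With 8 UMIs in WT mice, *Snhg20* passed it through the V321L mice. *Snhg20* alone was called, where 17.5% of all genes were called higher. Under the alternatives that count was 0 to 3. *Snhg11* was called with free RNA subtracted, among others, where 395 of 3015 genes were called higher. *Gas5* passed the filter and was called with sex as a covariate, with the replicate block and with several mice left out. Of all genes, 645 of 3770 were called higher with the sex covariate and 798 of 4420 with the replicate block. With 4 UMIs in WT mice, *Gas5* also passed the filter through the V321L mice. Nothing is read from the calls of *Snhg20* and *Gas5* in these nuclei. The count of host genes called was 0 with mitochondrial shares under 0.5%, where *Snhg20* was not tested. *Gas5* was at 7.59, 10.8, 0 and 5.60 CPM in WT and at 86.5, 87.1, 30.2 and 105 CPM in V321L GABAergic nuclei, where free RNA at the GC rate would give 39.8 of its 53 UMIs. That rate would also give 6315 ribosomal protein UMIs there, where 6365 were found, and reached the number found in 2 of 4 mice. No share of *Gas5* is read from it.

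In astrocytes of 7 mice, *Snhg20* and *Gas5* were called higher in V321L mice, with log2 fold changes of 3.70 (SE 0.56) and 3.40 (SE 0.53), and *Snhg11* was at -0.19 (SE 0.47), where 25.7% of all genes were called higher. In the 3 WT mice kept, *Snhg20* rested on 3 UMIs and *Gas5* on 4. Both thus passed the filter on low counts through the V321L mice, and nothing is read from these calls. Free RNA at the GC rate would give 134 *Gas5* UMIs in V321L astrocytes, against 102 found, and 9.43 of 95 *Snhg20* UMIs. That rate would also give 21463 ribosomal protein UMIs, against 11856 found, so it is too high for this class. With free RNA subtracted at that rate, *Gas5* no longer passed the filter on low counts and *Snhg20* was at 3.63 (SE 0.61) and called. In oligodendrocytes *Gas5* was at 3.73 (SE 0.71) and *Snhg11* at -0.77 (SE 0.73), where 20.6% of genes were called higher. *Snhg20* was also called there. In the oligodendrocytes of the 3 WT mice kept, *Snhg20* had 0 UMIs and *Gas5* had 2. Both passed the filter through the V321L mice, and nothing is read from these calls either. The GC rate of free RNA is too high for this class as well. With free RNA subtracted at that rate, *Snhg11* alone was tested and 0 host genes were called by edgeR, 0 at an unadjusted p under 0.05. *Snhg20* was found in none of the WT oligodendrocytes and at 148, 73.0, 87.9 and 172 CPM in those of the V321L mice, which over all nuclei is at least 7.13-fold higher against a floor of 3 counts over the WT group. Likewise it was at least 3.63-fold higher in V321L OPCs. In microglia 1 host gene, *Snhg11*, was tested, at -0.34 (SE 0.50, edgeR), and 0 were called, with 0 at an unadjusted p under 0.05, where 20% of genes were called higher. The microglial class was not tested with DESeq2. *Snhg15* was at 0 in every oligodendrocyte nucleus of all 8 mice. Over all 8 mice, some genes kept out of the gates also differed between the genotypes. In GCs *Rbfox3* was at 191 to 283 CPM in WT and 380 to 488 CPM in V321L mice, and *Slc17a7* at 32.7 to 93.9 and 340 to 393 CPM. In microglia *C1qa* was at 0 to 188 CPM in WT and 2080 to 3438 CPM in V321L mice, and *Siglech* at 191 to 751 and 782 to 1214 CPM. In oligodendrocytes *Mbp* was at 861 to 1157 and 3558 to 5531 CPM. *Cldn11* in oligodendrocytes and *Slc1a2* and *Slc4a4* in astrocytes overlapped. The part of this in the differences above was not tested.

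Whether the genotype difference itself differed between a class and GCs was tested with a class-by-genotype term. By edgeR, 0 of 8 tested host genes passed between GABAergic nuclei and GCs, where 1.43% of all genes did, and 0 had an unadjusted p under 0.05. By DESeq2 0 passed and 1 had an unadjusted p under 0.05, *Snhg8*, whose edgeR difference was -2.08 (SE 1.44, adjusted p = 0.671). The 2 *Snhg8* UMIs of WT GABAergic nuclei came from WT M1, and without this mouse the difference was 3.71 (SE 4.73, edgeR). The difference was 0.22 (SE 0.19, adjusted p = 0.757) for *Snhg11*, -0.37 (SE 0.60, adjusted p = 0.899) for *Snhg20* and 0.74 (SE 0.73, adjusted p = 0.804) for *Gas5*, all edgeR. For the glial classes of 7 mice 0 of 3 passed each, where 0.518% of genes did in astrocytes, 2.16% in microglia and 1.79% in oligodendrocytes, and 0 of 3 had an unadjusted edgeR p under 0.05. These glial fits were not run with DESeq2. The largest SE of these, 3.62, was for *Snhg20* in oligodendrocytes, whose WT value is 0. With SEs of this size a difference in response was not detectable for most host genes at this depth.

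Between the sexes, with genotype as a covariate, 0 of 9 host genes passed in GCs by edgeR, where 0.0462% of genes did. *Snhg8* alone had an unadjusted p under 0.05, and by DESeq2 0 did. *Snhg8* was 0.48 higher in males on the log2 scale (SE 0.21, adjusted p = 1) and *Snhg11* was at -0.24 in males (SE 0.13, adjusted p = 1, both edgeR).

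Chromatin accessibility at the promoters gave another readout of the same GC nuclei. ATAC counts were summed over peaks within 1000 bases of a start site, from 2358569 to 11191354 ATAC counts in the GCs of each mouse. *Gas5* was at 68.8 ± 3.88 CPM of ATAC counts in WT and 64.6 ± 10.4 in V321L mice, and *Snhg20* at 22.1 ± 2.78 and 24.1 ± 7.49 (SD, n = 4 each). *Snhg8*, whose RNA differed most, was at 90.0 ± 5.34 and 79.3 ± 13.8. For *Gas5*, *Snhg20* and *Snhg8* the groups overlapped. *Snhg8* was more accessible than 91.4% of 13034 promoters, *Gas5* than 82.5% and *Snhg20* than 19.9%.

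By edgeR 0 of 8 tested host genes differed in promoter accessibility between the genotypes, and 0 of 13034 promoters did (0.0%). The log2 fold changes of the host genes lay between -0.26 and 0.00, with SEs of 0.08 to 0.14. At an unadjusted p under 0.05, *Snhg8* alone passed, at -0.26 (SE 0.08, adjusted p = 0.451), among 1078 promoters. DESeq2 called 9 promoters, with no host gene among them. *Snhg11* had a peak in 7 of 8 libraries and was not tested. It was at 13.0, 21.0, 17.8 and 18.7 CPM of ATAC counts in WT and at 20.9, 17.3 and 15.5 in V321L F1, F2 and M1. The windows of *Snhg1*, *Snhg17* and *Gas5* also hold the starts of *Slc3a2*, *Gm23925* and *Zbtb37*, so their accessibility is shared with these genes.

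**Figure D5:**
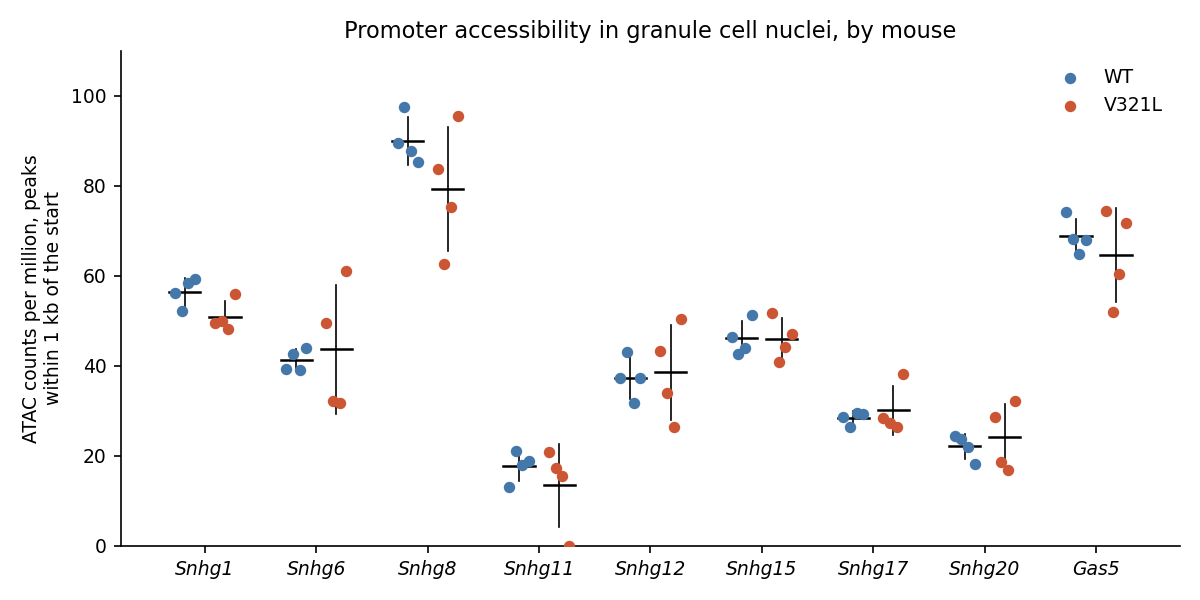
CPM of ATAC counts in peaks within 1 kb of the start of each host gene in GC nuclei (vertical axis), a point per mouse, WT in blue and V321L in red, with means and SD over 4 mice. The groups overlap for all 9 genes, and the point at 0 is *Snhg11* in V321L M2, where no peak was called.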

How the data were processed

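Single-nucleus RNA and ATAC libraries of 8 mice were read from deposited matrices of raw counts, made by the authors with the Cell Ranger ARC pipeline per the paper's methods (mm10 per the labels), without normalization and with ATAC peaks called per library. Nuclei with 500 to 9000 UMIs, 250 to 3300 genes, under 2.8% mitochondrial UMIs and at least 500 ATAC counts were kept, and doublets were removed by a score built from simulated pairs of nuclei (above the library mean + 2 SD). This removed 75 to 150 barcodes per WT and 43 to 83 per V321L library.

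A nucleus was put in the class with the most different markers found, at least 2, and at least 3 UMIs outside GCs. This gate replaced the first after marker levels were seen: *Zfpm2*, *Hs3st4*, *Cpne4* and *St18*, at 100 CPM or more in GCs, were dropped, and 8 versions were examined on marker and held-out genes alone. *Slc1a2* replaced *Slc4a4* in the free-RNA estimate, since GCs held *Slc4a4*.

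UMIs were summed per mouse and class. Classes with at least 20 nuclei in every mouse were tested by edgeR 4.0.16 (R 4.3.3; glmQLFTest, TMM, filterByExpr, Benjamini-Hochberg over all tested genes), with SE as the log2 fold change over the root of F. DESeq2 1.42.0, library sizes, other gates, thinning, free RNA, sex, left-out mice and a replicate block were alternatives. The code was tested on simulated counts. The p-values rest on the spread between mice, with its estimate shared over genes. Very small p-values therefore do not measure the spread of the 4 mice alone.

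The host genes and gene lists were chosen with earlier results of these data known. All 9 host genes are named, with the 3 genes of highest GC level of each other list and the 3 genes most like a host gene. *Rps27l*, *Rpl7l1* and genes that bear on a result were named after their values were seen. Trajectories and ATAC fragments were not used here.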

Additional observations from a re-analysis of the deposited data

Results flagged for a closer look

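Dixon's criterion for a mouse far from the rest of its group was applied to 54 groups of 4 mice. These were each host gene by genotype, in GCs, in GABAergic nuclei and at the promoter in GCs. The criterion was met by 4 groups, where chance gives about 1 in 20 if values are normally distributed. WT M1, the shallowest library, was far above the other WT mice for *Snhg17* in GCs (5.03 CPM) and, in GABAergic nuclei, for *Snhg8* (29.6 CPM) and *Snhg17* (14.8 CPM). These GABAergic values rest on 2 UMIs of *Snhg8* and 1 UMI of *Snhg17* in WT M1. All other WT mice held 0 UMIs of both genes in GABAergic nuclei, so any UMI in a single mouse would have met the criterion. The *Snhg17* promoter in V321L M2 stood at 38.2 CPM of ATAC counts, above the other V321L mice at 26.4 to 28.3.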

How the results depend on the processing

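Of the counts and shares that answer a comparison, 119 values under alternatives stayed close to the reported value (counts within 1.5 times, shares within 1 SD between mice) and 33 moved. Of the values of single genes, 451 stayed close or kept their call, 24 moved, 2 gained a call and 1 called value, *Snhg6*, turned its direction. Values that were not called turned in 21 cases, 6 of them *Snhg11* in GCs, at -0.126 to -0.004. In V321L GCs, 8 of 9 host genes were called higher and 4 of 7 after thinning to 1000 UMIs, where 38.5% and 34.5% of all genes were. The count was 7 to 8 when mice were left out in turn. Of all genes, 4365 of 12856 were then called higher without WT F2 and 4888 of 12796 without WT M1. It was 6 of 7 tested host genes with the gate as first written, where 34.0% of all genes were called higher. Without 3 markers of that gate it was 7 of 8, where 4703 of 12223 genes were. The genes were chosen with this contrast known, so nothing is read from these counts. *Snhg6* went from 0.69 to -0.90 when free RNA was subtracted, which also left 47 of 83 calls among ribosomal protein genes, with 54 of them tested. These ribosomal protein calls are not read, since the amount subtracted exceeded their UMIs in WT GCs. In GABAergic nuclei the reported count of 1 was 0 with mitochondrial shares under 0.5%, 3 without a filter, and 2 with library sizes without ribosomal protein and mitochondrial genes, at least 3 markers, doublets kept, free RNA subtracted, sex as a covariate, the first gate or the replicate block, and 1 to 2 with mice left out. Of all genes, 1287 of 16975 were called higher in GABAergic nuclei without a filter and 798 of 4420 with the replicate block. Nothing is read from the calls of *Snhg20* and *Gas5* in these counts, which rest on 8 and 4 WT UMIs. With free RNA subtracted, the 2 calls became 1 in astrocytes (2 tested) and 0 in oligodendrocytes (1 tested), where 531 of 2887 and 281 of 2415 genes were called higher. Against GCs, 2 of 9 tested host genes were higher and 2 lower in GABAergic nuclei of V321L mice, where 28.9% of all genes were called in either direction. WT mice gave 1 and 0 of 4 tested, where 10.4% of all genes were called higher. The single microglial call against GCs in 3 WT mice was 0 with at least 3 markers, thinning, free RNA subtracted or V321L mice, and oligodendrocytes gave 1 in V321L mice and 0 in WT. Thinning to 1000 and 500 UMIs moved the share of GCs with *Snhg11* from 32.1% to 21.5% and 12.2% in WT and from 60.0% to 29.5% and 17.0% in V321L mice, and that with *Gas5* from 3.45% to 1.54% and 0.985% and from 36.7% to 11.7% and 6.45%. Thinning holds fewer UMIs by construction, and the cause of the other changes was not tested.

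The replicate block left 8 of 9 host genes called higher in GCs, where 4944 of 13438 genes were called higher, and nothing is read from that count. Deviations of same-numbered mice from their group means correlated at 0.03 and 0.24 for females and -0.12 and 0.03 for males. Such mice share sex and a number. Of the WT mice F2 alone correlated best with its own label, so the labels were not taken as pairs. The GABAergic count of 2 under this pairing is thus no measure of pairing. Depth limits WT values most, with 7 to 73 UMIs in all WT GCs for *Snhg1*, *Snhg8*, *Snhg12*, *Snhg15*, *Snhg17* and *Snhg20*, and glial classes of WT M1 with 4 to 15 nuclei. Thinned GABAergic nuclei left 1 host gene to test.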

Other observations

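Over the 8 sums of WT nuclei (GCs and GABAergic nuclei of 4 mice), the levels most like those of *Snhg11*, on the log2(CPM + 1) scale among 8656 genes, were of *Bcat1*, *Cpeb2* and *Rbms3* (Pearson correlation 0.997 each, across 8 sums). For *Gas5* they were *Mbd1*, *Lrrc20* and *Palm*, and for *Snhg20* *Fam3a*, *Rab3gap1* and *Idua*. The points fall into 2 classes of the same mice, so such likeness mostly orders genes by their difference between these classes.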
